A study of Saccharomyces cerevisiae with 24 samples.

Results

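The transcripts described here are those of 10 genes of peroxisomal fatty acid oxidation in the yeast Saccharomyces cerevisiae: PXA1, PXA2, FAA2, POX1, FOX2, POT1, ECI1, CTA1, CAT2 and CRC1. They were taken as a pathway list, and each has 1 probe set in the platform annotation, so 10 of the 5449 genes measured are described. The study followed S288C, the reference laboratory strain of the species, in SD medium, a synthetic growth medium. The culture grew at 28 °C to an optical density of 1 and was then shifted to 10 °C, shifted to 37 °C, or left at 28 °C as the control. Each of the 3 cultures was sampled at 0, 15 and 30 min and at 1, 2, 4, 8 and 24 h, and each sample was read on 1 array, which makes 24 arrays. Strain, medium and growth before the shift were common to the 3 cultures, and the labels name no genetic alteration. Per the labels' protocols, RNA of the 28 °C and 10 °C samples was amplified with an Ambion kit, and RNA of the 37 °C samples with a Roche kit combined with the Ambion kit, so that kit and temperature cannot be told apart in any direct contrast of the 37 °C culture with another.

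Yeast breaks down fatty acids only in peroxisomes. An acyl chain is imported and activated, shortened in repeated rounds of oxidation, hydration, a further oxidation and thiolytic cleavage, and the acetyl units leave the organelle as acetylcarnitine or through the glyoxylate cycle for use in mitochondria. The genes are known to be held low by glucose through the Snf1 and Mig1 pathway, to need the activator Adr1 once glucose is gone, and to be further induced by the Oaf1 and Pip2 pair when oleate is present.

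All levels are log2 RMA values, a normalised array brightness per probe set, and a difference of 1 on this scale is 2-fold. A level is compared only with other levels of the same gene, because the brightness of different probes is not comparable. In a bulk culture, fewer cells making a transcript and less transcript per cell cannot be told apart. Probe sets of another species on the array served as background, and the 95th percentile of their mean levels was 6.53. All 10 genes had a mean above this bound, but CTA1 lay below it on 6 of the 8 arrays at 28 °C. The array medians of all yeast genes ranged from 10.69 to 10.78. The 4 heat shock genes HSP26, HSP104, SSA4 and HSP78, markers of the 37 °C shift, had a median change of 2.63 at 30 min in the 37 °C culture and of -1.65 in the 10 °C culture. The 4 cold markers TIP1, TIR1, TIR2 and NSR1 had a median change at 30 min of only 0.16 at 10 °C and of -0.23 at 37 °C. At 10 °C NSR1 was at 1.14, and TIP1, TIR1 and TIR2 were at 0.07, 0.16 and 0.16. At 0 min the 37 °C array already differed at least 2-fold from the 28 °C array for 44.0% of genes, against 0.551% for the 10 °C array. The oxidation genes shared in this. At 0 min 9 of the 10 were higher on the 37 °C array, 3 of them by at least 2-fold (23.8% of all genes were that much higher), with a median difference of 0.71 against 0.29 for all genes. The 3 were PXA2, FAA2 and POX1, with differences of 2.07, 2.1 and 1.64. The 10 differences of the 10 °C array from the 28 °C array at 0 min ran from -0.47 to 0.19. For this reason changes are given from the 0 min array of the same culture unless stated otherwise.

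The 10 genes took a different course in each culture. At 10 °C the genes were spread around their starting level up to 30 min. At 1 h 8 of the 10 were above it, ECI1 (1.24), CTA1 (1.21) and FAA2 (1.08) by at least 2-fold, while POT1 was at -0.77, and from 2 h on 9 or 10 were above it. Their median change at 30 min was -0.11, at 1 h it was 0.36 and at 2 h 1.02, followed by 1.48 at 4 h and 1.56 at both 8 and 24 h. At 37 °C the median change was 0.45 at 15 min, 0.88 at 30 min and 0.99 at 1 h, then 0.06 at 4 h and 0.87 at 24 h. In the 28 °C culture the median change did not exceed 0.29 through 8 h, with a lowest value of 0.03, and reached 1.11 by 24 h. The median change of all genes lay between -0.07 and 0.04 on every array. At 37 °C the highest level fell at 1 h for POX1, POT1, CTA1, CRC1 and CAT2 and at 30 min for ECI1, whereas none of the 10 was highest before 4 h at 10 °C.

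**Figure D1:**
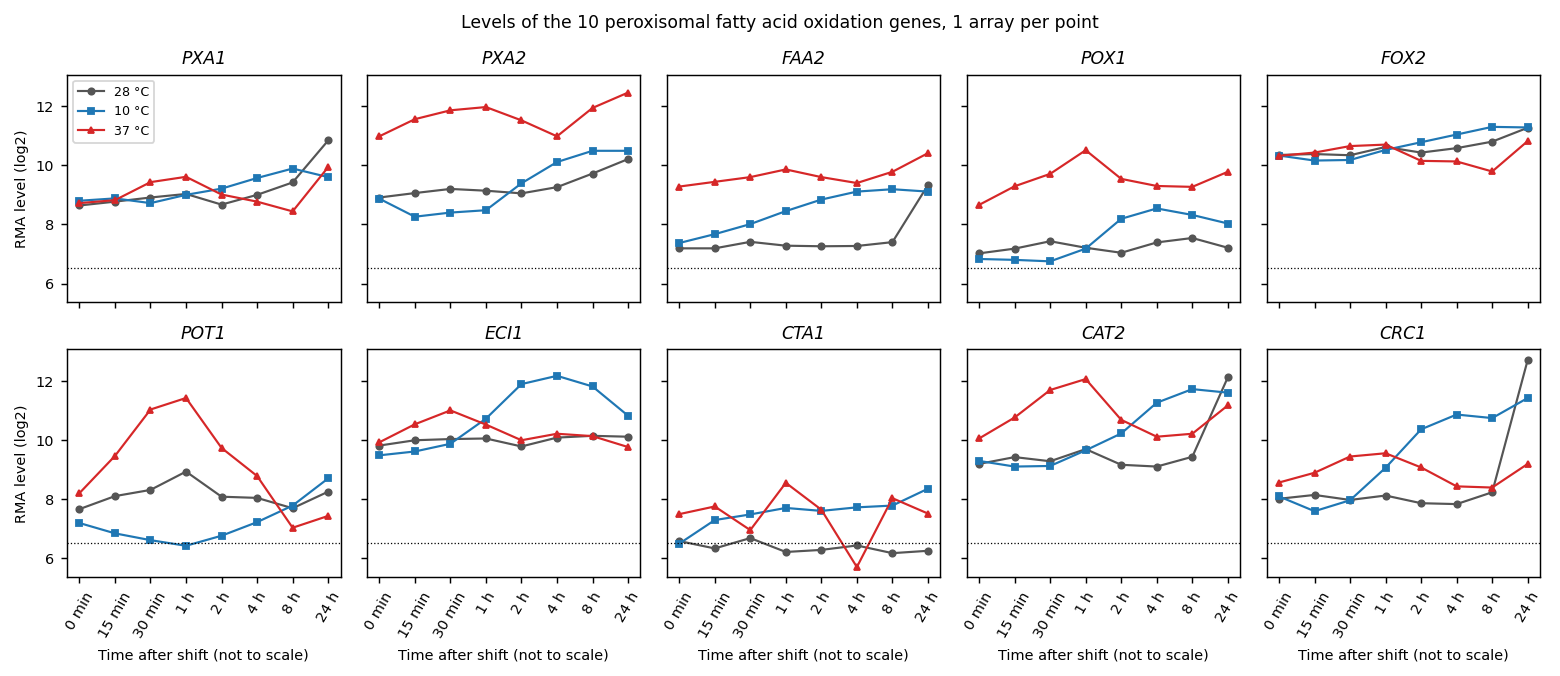
Log2 RMA level of each of the 10 genes (vertical axis) at the 8 sampling times (horizontal axis, not to scale) in the 28 °C, 10 °C and 37 °C cultures, 1 array per point, with the background bound of 6.53 dotted. The 10 °C curves of ECI1, CRC1 and CAT2 lie above the 28 °C curves from 2 to 8 h, the 37 °C curves of POT1 and CAT2 peak at 1 h, and the 28 °C curves of CRC1, CAT2, FAA2 and PXA1 are highest at 24 h.

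Import and activation come first. PXA1 and PXA2 encode the subunits of the ABC transporter that carries long-chain acyl-CoA across the peroxisomal membrane. The PXA2 level at 10 °C was 8.87 at 0 min, 8.26, 8.4 and 8.48 over the first hour, then 9.39, 10.11, 10.49 and 10.49 from 2 to 24 h. It was thus lower than at the start on each array of the first hour and higher on each array afterwards, with a lowest to highest span of 4.68-fold. At 28 °C the same gene moved from 8.91 at 0 min to 9.72 at 8 h and 10.21 at 24 h. At 37 °C it started at 10.98, stood at 11.97 at 1 h, returned to 10.98 at 4 h and was 12.46 at 24 h. Every 37 °C array was above every array of the other cultures for PXA2, the 0 min array included.

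PXA1, its partner, followed a flatter course. Its level at 10 °C lay between 8.72 and 9 up to 1 h and was 9.21, 9.57 and 9.89 at 2, 4 and 8 h before 9.6 at 24 h. At 28 °C it was between 8.64 and 9.03 until 4 h, 9.42 at 8 h and 10.84 at 24 h. In the 37 °C culture PXA1 started at 8.72, stood at 9.61 after 1 h, had its lowest level of 8.44 at 8 h and its highest, 9.94, at 24 h. The genes for both subunits were thus higher at 24 h than at 0 min in each culture, and the dip of the first hour at 10 °C was seen for PXA2, while PXA1 stayed within 0.21 of its start.

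FAA2, the peroxisomal acyl-CoA synthetase that activates medium-chain fatty acids, had the steadiest course at 10 °C. Its level was 7.37 at 0 min and 7.67, 8.01, 8.45, 8.84, 9.11 and 9.19 on the following arrays up to 8 h, with 9.11 at 24 h. Each array up to 8 h was above the one before, and the 8 h value was 3.52-fold above the start. At 28 °C FAA2 lay between 7.19 and 7.41 on all 7 arrays up to 8 h and at 9.33 at 24 h. At 37 °C it lay between 9.28 and 9.86 up to 8 h and at 10.41 at 24 h.

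The core of the cycle is made by POX1, FOX2 and POT1. POX1 encodes acyl-CoA oxidase, which carries out the first step and releases hydrogen peroxide. At 10 °C its level was 6.83, 6.8 and 6.75 up to 30 min, 7.18 at 1 h, and 8.19, 8.54, 8.32 and 8.03 from 2 to 24 h. At 28 °C all 8 arrays lay between 7.02 and 7.54, so that every 10 °C array from 2 h on was above every 28 °C array. At 37 °C POX1 was 8.66 at 0 min, 10.51 at 1 h and between 9.27 and 9.78 afterwards.

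FOX2, the multifunctional enzyme that hydrates and then oxidises the chain, had a narrow range. At 10 °C it went from 10.33 at 0 min and 10.16 at 15 min to 11.3 at 8 h, a lowest to highest span of 2.2-fold. At 28 °C it lay between 10.34 and 10.8 up to 8 h and at 11.27 at 24 h. At 37 °C it was highest within the first 8 h at 1 h (10.7), and was lower at 2, 4 and 8 h (10.15, 10.13 and 9.79) than at 0 min (10.32). On the 8 h arrays the FOX2 level was thus highest at 10 °C (11.3), intermediate at 28 °C (10.8) and lowest at 37 °C.

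POT1 encodes 3-ketoacyl-CoA thiolase, which releases acetyl-CoA in the last step. At 37 °C its level was 8.21 at 0 min, 9.47 at 15 min, 11.04 at 30 min and 11.43 at 1 h, then 9.74, 8.79, 7.04 and 7.44. The 1 h value was 9.3-fold above the start and the 8 h value was the lowest of the series, a span of 20.9-fold that none of the other 9 genes matched at this temperature. At 10 °C the course ran the other way in the first hour, with 7.2 at 0 min, 6.85, 6.62 and 6.43 up to 1 h, then 6.77, 7.23, 7.79 and 8.71. The 1 h array at 10 °C was below the background bound. The 28 °C culture, which was not shifted, had a smaller maximum at the same time, with 7.67 at 0 min, 8.94 at 1 h and 8.09 at 2 h. That 1 h value was 2.41-fold above the start, and 0.44% of all genes were at least 2-fold above theirs on this array.

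ECI1 encodes the enoyl-CoA isomerase that moves double bonds so that unsaturated fatty acids can enter the cycle. Its level at 10 °C was 9.49, 9.62 and 9.88 up to 30 min, 10.73 at 1 h, 11.9, 12.18 and 11.82 at 2, 4 and 8 h, and 10.83 at 24 h. It was the gene of the 10 with the highest change at 2 h (2.41), and at 24 h its change had come back to 1.34. At 28 °C all 8 arrays lay between 9.79 and 10.15. At 37 °C ECI1 was 9.93 at 0 min, 11.01 at 30 min and between 9.77 and 10.22 from 2 h on.

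CTA1 encodes catalase A, which removes the hydrogen peroxide that the oxidase makes. At 10 °C it was 6.5 at 0 min, close to background, 7.3 at 15 min, between 7.49 and 7.79 from 30 min to 8 h, and 8.36 at 24 h. Here the 15 min array was already 0.8 above the start, at a time when 6 of the 10 genes were below theirs. At 28 °C it lay between 6.18 and 6.69, at or near background. At 37 °C neighbouring arrays differed widely, with 6.96 at 30 min, 8.56 at 1 h and 5.71 at 4 h, the last of these below the background bound.

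The last pair handles the acetyl units. CAT2 encodes the carnitine acetyltransferase of peroxisomes and mitochondria, and CRC1 the carrier that brings acetylcarnitine into mitochondria. CAT2 at 10 °C was 9.3, 9.11, 9.13 and 9.66 up to 1 h and then 10.23, 11.27, 11.73 and 11.61. At 37 °C it was 10.06 at 0 min, 10.77, 11.7 and 12.07 over the first hour, and 10.69, 10.12, 10.22 and 11.18 afterwards. The 1 h value at 37 °C was 4.01-fold above the start, and 3 h later the level was back to within 0.05 of it.

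CRC1 at 10 °C was 8.1 at 0 min, 7.6 and 7.97 at 15 and 30 min, 9.07 at 1 h, and 10.37, 10.87, 10.75 and 11.43 from 2 to 24 h. At 37 °C it stayed between 8.4 and 9.56. At 28 °C its 7 arrays up to 8 h lay between 7.84 and 8.24, and its 24 h array was at 12.72, which was 26.0-fold above the start. CAT2 likewise lay between 9.11 and 9.7 at 28 °C up to 8 h and at 12.13 at 24 h. For both genes the unshifted culture held the highest level of all 24 arrays, at 24 h.

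The first comparison asks whether the courses at 10 °C changed between the first hour and the hours after it. It sets the 3 arrays at 2, 4 and 8 h against the 3 arrays at 15 min, 30 min and 1 h, each relative to the 28 °C array of the same time. No time was repeated, so arrays of a window stand in for replicates, and the standard error (SE) and p rest on how far single times lie from their window's mean, not on the spread between cultures. Of the 10 genes 6 rose and none fell by limma with Benjamini-Hochberg adjustment over all genes at 0.05, where 13.2% of all genes rose. CRC1 rose by 2.56 ± 0.39 (SE, adjusted p = 0.0033), CAT2 by 2.01 ± 0.45 (adjusted p = 0.011) and ECI1 by 1.91 ± 0.31 (adjusted p = 0.0037). PXA2 rose by 1.41 ± 0.26 (adjusted p = 0.0055), POX1 by 1.39 ± 0.31 (adjusted p = 0.01) and FAA2 by 0.99 ± 0.2 (adjusted p = 0.0075). Part of the PXA2 rise is a return. Relative to 0 min its estimate was -0.71 ± 0.37 in the first hour and 0.69 ± 0.37 from 2 to 8 h. For POT1 these estimates were -1.35 ± 1.12 and -0.22 ± 1.12. FOX2 at 0.6 ± 0.22 did not pass (limma adjusted p = 0.061), and neither did POT1 at 1.14 ± 0.79 (0.31), PXA1 at 0.56 ± 0.32 (0.22) or CTA1 at 0.32 ± 0.65 (0.74). All 10 estimates were positive, with a median of 1.26 against 0.01 over all genes. In the levels themselves, 8 of the 10 genes (all but POT1 and CTA1) had each array from 2 to 8 h at 10 °C above each array of the first hour, which held for 32.6% of all genes. The number of the 10 genes past the threshold was 3 when the 30 min or the 4 h arrays were left out, or when the 24 h arrays were joined to the later window. No share of all genes under these settings stands beside these counts, so they do not set the 10 genes against the rest. ECI1 and PXA2 passed under each of the 14 alternatives run.

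Measured from 0 min instead, 0 of the 10 genes passed in the first hour at 10 °C or from 2 to 8 h, and 0.0% of all genes did in either window by limma. At an unadjusted p under 0.05 the counts were 0 and 5 of the 10, against 519 and 1143 of all 5449 genes. The 5 were CRC1 at 2.59 ± 0.56, ECI1 at 2.29 ± 0.43 and FAA2 at 1.55 ± 0.28 (limma adjusted p = 0.059 for each), CAT2 at 1.74 ± 0.63 (adjusted p = 0.15) and POX1 at 1.22 ± 0.43 (adjusted p = 0.14). These estimates carry the error of a single 0 min array in each culture. Without the 2 h arrays 4 of the 10 passed and without the 1 h arrays 3 did. These counts are not set against the share of all genes under the same settings. They show only that the calls depend on which times are used. Counted by size alone, 3 of the 10 genes were at least 2-fold above their own 0 min at 1 h (5.71% of all genes), 5 at 2 h (5.47%), 7 at 4 h (8.44%), 8 at 8 h (13.2%) and 8 at 24 h (13.9%). PXA1 and FOX2 were below 2-fold at 24 h, with changes of 0.8 and 0.95, and PXA1 had been at 1.09 at 8 h.

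**Figure D2:**
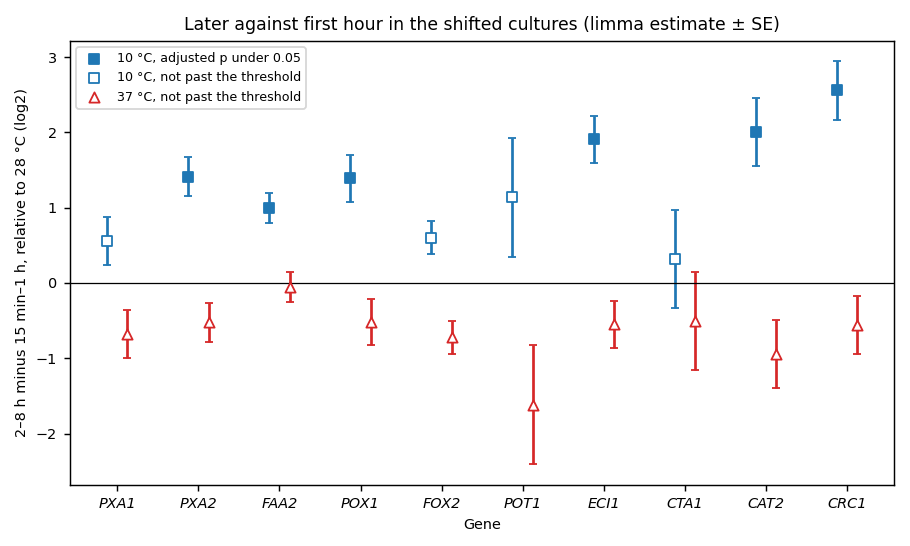
Difference between 2 to 8 h and the first hour for each gene (vertical axis, log2, relative to the 28 °C culture) at 10 °C (squares) and 37 °C (triangles), with the standard error of the limma fit; filled symbols passed an adjusted p of 0.05. All 10 estimates are above 0 at 10 °C, 6 of them filled, and all 10 are below 0 at 37 °C with none filled.

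At 37 °C the same comparison gave estimates of the opposite sign for each gene, but none of the 10 passed by limma, and 0.147% of all genes did. At an unadjusted p under 0.05 the count was 1 of the 10, against 1098 of all 5449 genes. The gene was FOX2, at -0.72 ± 0.22 (limma adjusted p = 0.15). The median of the 10 was -0.55 against -0.01 over all genes, and the largest estimate in size was that of POT1, -1.62 ± 0.79 (limma adjusted p = 0.27). In the levels, FOX2, CAT2 and ECI1 had each array from 2 to 8 h below each array of the first hour, which held for 16.7% of all genes. Without the subtraction of the 28 °C arrays, FOX2 (-0.57), POT1 (-2.12) and CAT2 (-1.17) passed, which is not set against the share of all genes.

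For the first hour at 37 °C relative to 0 min and to the 28 °C culture, all 10 estimates were above 0, from 0.17 for FOX2 to 1.65 ± 1.12 for POT1, with CAT2 at 1.17 ± 0.63. None of the 10 passed by limma, none had an unadjusted p under 0.05 (455 of all 5449 genes had), and 0.0184% of all genes passed. From 2 to 8 h the 10 estimates ran from -0.55 to 0.4. None of these passed either, also at an unadjusted p under 0.05 (300 of all 5449 genes had one), and 0.0551% of all genes passed. Counted by size, 4 genes (POT1, CAT2, ECI1 and POX1) were at least 2-fold above their own 0 min at 30 min, where 9.36% of all genes were. At 1 h there were again 4 (POT1, CAT2, POX1 and CTA1), against 7.32% of all genes, with CRC1 and PXA2 just short at 0.99 each. The SE of the first-hour estimates ran from 0.28 for FAA2 to 1.12 for POT1.

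Set against each other directly, the cultures at 37 °C and 10 °C differed for a few of the genes. In the first hour PXA2 alone passed, higher at 37 °C by 1.3 ± 0.37 relative to 0 min (limma adjusted p = 0.035), and 7.82% of all genes were higher. In either direction 885 of all 5449 genes passed, so the 10 genes did not pass more often than genes at large. POT1 had the widest difference, 3.01 ± 1.12, without passing (adjusted p = 0.086), and POX1 (1.09 ± 0.43) and CAT2 (1.44 ± 0.63) did not pass. The PXA2 call was lost without the 15 min, the 30 min or the 1 h arrays, with an adjusted p of 0.055, 0.11 and 0.088 in turn. From 2 to 8 h the change from 0 min of 3 genes was lower at 37 °C than at 10 °C, where that of 2.72% of all genes was. These were CRC1 by -2.49 ± 0.56 (limma adjusted p = 0.03), ECI1 by -2.28 ± 0.43 (adjusted p = 0.024) and FAA2 by -1.37 ± 0.28 (adjusted p = 0.026). FOX2 at -1.01 ± 0.31 did not pass (adjusted p = 0.071). Without the 30 min or the 4 h arrays none of the 10 passed, and without the 2 h arrays 5 did, counts given without the share of all genes. The FAA2 difference was 0.55, with the sign turned, when the 0 min levels were not subtracted, because FAA2 stood at 9.28 at 0 min at 37 °C and at 7.37 at 10 °C.

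At 24 h most of the genes were high in each culture, and the unshifted culture was no exception. In a fit with culture and time as terms, 6 of the 10 genes rose between 0 min and 24 h and none fell, against 18.3% of all genes that rose. The 3 cultures stand in for replicates in this fit, although their temperatures differ. Its SE rests on departures from a course common to the cultures over all sampling times, not on the spread of the 24 h changes alone. CRC1 rose by 2.89 ± 0.86 (limma adjusted p = 0.014), CAT2 by 2.12 ± 0.67 (adjusted p = 0.019) and FAA2 by 1.67 ± 0.34 (adjusted p = 0.0016). PXA2 rose by 1.46 ± 0.39 (adjusted p = 0.0075), PXA1 by 1.41 ± 0.35 (adjusted p = 0.0053) and FOX2 by 0.79 ± 0.28 (adjusted p = 0.033). POX1 at 0.84 ± 0.41 did not pass (adjusted p = 0.11), nor did CTA1, ECI1 and POT1 at 0.52, 0.49 and 0.44. The 24 h array was above the 0 min array in all 3 cultures for 7 of the 10 genes, POX1 and the 6 that passed, which held for 27.4% of all genes. None of the 10 passed without the 28 °C culture, where 132 genes did in place of 2159. With the 0 min and 24 h arrays alone 3 passed, a count given without the share of all genes. Within the 28 °C culture, 2 to 24 h against 0 min to 1 h, none of the 10 passed by limma and 0.0% of all genes did. None of the 10 had an unadjusted p under 0.05, against 155 of all 5449 genes.

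**Figure D3:**
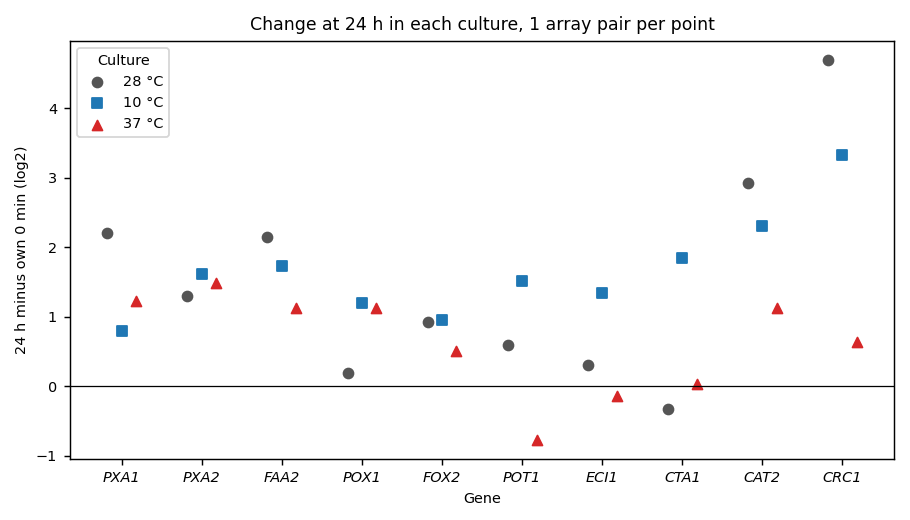
Change of each gene from 0 min to 24 h (vertical axis, log2) in the 28 °C (circles), 10 °C (squares) and 37 °C (triangles) cultures, 1 pair of arrays per point. PXA1, PXA2, FAA2, POX1, FOX2, CAT2 and CRC1 lie above 0 in all 3 cultures, and CRC1 spans 0.63 at 37 °C to 4.7 at 28 °C.

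The size of the 24 h change differed between cultures for CRC1. The change was 4.7 at 28 °C, 3.33 at 10 °C and 0.63 at 37 °C, and relative to 28 °C the 37 °C change was lower by -4.07 ± 0.68 (limma adjusted p = 0.0048). This difference is made of 1 array at 0 min and 1 at 24 h in each culture, so its SE comes from the spread at the times from 15 min to 8 h, and it includes the 28 °C array at 24 h, which lay 4.47 above the next highest of its culture. CRC1 was the only one of the 10 past the threshold there in either direction. Of all 5449 genes 574 passed, 205 of them lower (3.76% of all genes) and 369 higher. Counted in either direction, 1 of the 10 is thus near the share of all genes. CAT2 (-1.81 ± 0.77) and FAA2 (-1.01 ± 0.35) did not pass. At 10 °C none of the 10 passed relative to 28 °C by limma, 1 had an unadjusted p under 0.05 (PXA1, -1.4 ± 0.55, adjusted p = 0.083), and 27.1% of all genes passed. An unadjusted p under 0.05 was found there for 2105 of all 5449 genes. By size, 5 of the 10 genes were at least 2-fold above 0 min at 24 h at 28 °C (20.3% of all genes), 8 at 10 °C (13.9%) and 5 at 37 °C (16.6%). The order of the cultures by 24 h change was not the same for all genes. POT1 had changes of 0.59 at 28 °C, 1.51 at 10 °C and -0.77 at 37 °C, and ECI1 of 0.3, 1.34 and -0.15 in the same order.

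Genes of the same organelle and of linked pathways were read in the same comparisons. Peroxins build peroxisomes and import their proteins. From the first hour to 2 to 8 h at 10 °C, 4 of the 25 peroxins measured rose and 2 fell, with a median of 0.12, where 13.2% of all genes rose and 11.5% fell. PEX30 (1.23 ± 0.28), PEX29 (0.9 ± 0.26) and PEX7 (0.85 ± 0.19), the receptor that imports thiolase, were among those that rose. PEX30 and PEX29 had first fallen, with changes from 0 min at 10 °C of -0.69 and -0.75 at 1 h and of 0.9 and 0.7 at 8 h. PEX11, which promotes division of peroxisomes, did not pass in that comparison of windows, and fell by 1.26 between 0 min and 24 h over the 3 cultures (limma adjusted p = 0.0027). In that 24 h comparison 7 peroxins rose and 5 fell, where 18.3% of all genes rose and 21.4% fell.

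Of 20 other peroxisomal and fatty acid enzymes, 6 rose and 1 fell at 10 °C from the first hour to 2 to 8 h, with a median of 0.51, against 13.2% and 11.5% of all genes. IDP3, the peroxisomal isocitrate dehydrogenase that supplies NADPH for unsaturated fatty acids, rose by 2.2 ± 0.33 (limma adjusted p = 0.0031). AGP2, a plasma membrane protein linked to carnitine uptake, rose by 2.24 ± 0.4, PNC1, a nicotinamidase, by 1.72 ± 0.3, DCI1, a relative of ECI1, by 1.08 ± 0.21 and TES1, a peroxisomal thioesterase, by 0.91 ± 0.2. PNC1 and AGP2 had first fallen, so part of their rise is a return. Their changes from 0 min at 10 °C were -1.76 and -0.91 at 30 min, and 0.67 and 1.81 at 8 h. TES1 was below the background bound on all 8 arrays at 37 °C. At 24 h over the 3 cultures 4 of the 20 rose and 5 fell, near the 18.3% and 21.4% of all genes. SPS19, the dienoyl-CoA reductase, rose by 2.28 ± 0.5 and IDP3 by 2.72 ± 0.66, while AAT2, an aspartate aminotransferase, fell by 1.52 and FAA4, a long-chain acyl-CoA synthetase, by 1.27.

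Of the 15 regulators, 4 rose and none fell at 10 °C from the first hour to 2 to 8 h, against 13.2% and 11.5% of all genes. ADR1, the activator of the oxidation genes, rose by 2.32 ± 0.49 (limma adjusted p = 0.009). Its level at 10 °C was 9 at 0 min, 8.81, 8.95 and 9.37 over the first hour and 10.14, 10.96 and 11.26 from 2 to 8 h. RGT1, a repressor of glucose transporter genes, rose by 1.1 ± 0.24, and SNF1, the kinase that relieves glucose repression, by 0.68 ± 0.19. OAF1 and PIP2, the oleate-responsive pair, did not pass there. Over the 3 cultures at 24 h, CAT8, the activator of gluconeogenesis genes, rose by 3.29 ± 0.64, ADR1 by 2.13 ± 0.73 and OAF1 by 1 ± 0.21, among 5 that rose and 1 that fell, against 18.3% and 21.4% of all genes. ADR1 in the 28 °C culture lay between 8.77 and 9.57 up to 8 h and at 12.86 at 24 h, on the same array on which CRC1 and CAT2 were highest.

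Of 12 genes of the glyoxylate cycle, gluconeogenesis and acetate use, 4 rose and none fell at 10 °C from the first hour to 2 to 8 h, with a median of 1.03, against 13.2% and 11.5% of all genes. ICL1, isocitrate lyase, rose by 1.14 ± 0.23 (limma adjusted p = 0.0072), ALD4, the mitochondrial aldehyde dehydrogenase, by 2.39 ± 0.57 and FBP1, fructose-1,6-bisphosphatase, by 1.57 ± 0.46. ALD4 had first fallen, with a change from 0 min at 10 °C of -1.59 at 30 min and of 1.63 at 8 h. At 24 h over the 3 cultures 7 rose and 1 fell, against 18.3% and 21.4% of all genes. PCK1, phosphoenolpyruvate carboxykinase, rose by 2.86 ± 0.44 and JEN1, the lactate transporter, by 4.4 ± 0.72, while ACO1, aconitase, fell by 1.3. At 10 °C the median change of these genes was 0.02, 0.42 and 1.07 at 1, 2 and 4 h, below the 0.36, 1.02 and 1.48 of the 10 oxidation genes, and 1.47 against 1.56 at 24 h. At 24 h at 28 °C it was 1.55 against 1.11, and at 30 min at 37 °C 1.09 against 0.88. The median of the peroxins stayed between -0.1 and 0.45 on all arrays.

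**Figure D4:**
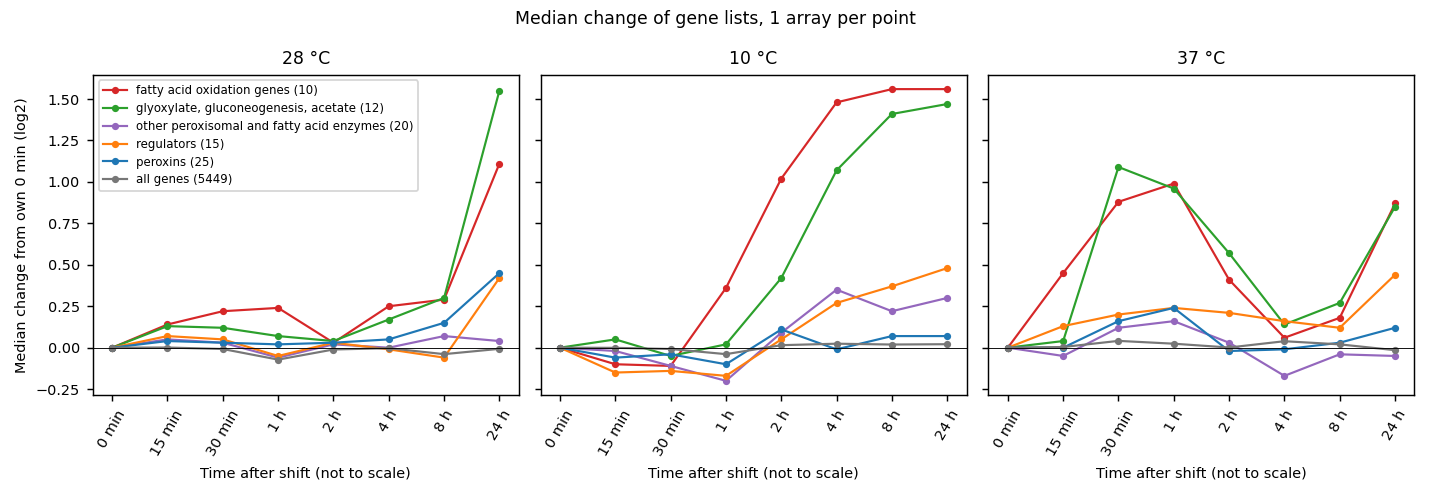
Median change from 0 min (vertical axis, log2) of the 10 oxidation genes, the 4 related gene lists and all genes at each time (horizontal axis, not to scale) in the 28 °C, 10 °C and 37 °C cultures, 1 array per point. The oxidation genes and the glyoxylate, gluconeogenesis and acetate genes lie above the other lists from 2 h at 10 °C and at 24 h at 28 °C, where they reach 1.11 and 1.55.

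The 10 genes differed among themselves over the 21 arrays after 0 min. The root mean square difference between a gene's change and the mean change of the 10 was 0.382 for FAA2, 0.409 for PXA2, 0.417 for PXA1 and 0.423 for POX1, the genes nearest the mean. It was 0.93 for CRC1 and 1.04 for POT1, the genes farthest from it. FOX2 and PXA1 were the closest pair, at 0.394, and each is the other's nearest gene of the list. CRC1 and CAT2, the acetylcarnitine pair, were 0.669 apart, and POT1 was at least 1.05 from every other gene of the list.

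By the same measure, the genes outside the list whose course was most like the mean of the 10 were SNA4 (0.228), GDH2 (0.235), ICS2 (0.251), HEL1 (0.274) and NDL1 (0.275). GDH2, the NAD-dependent glutamate dehydrogenase, had a change of 1.21 at 24 h at 28 °C, 1.07 at 4 h at 10 °C and 0.82 at 1 h at 37 °C, where the mean of the 10 was 1.49, 1.49 and 1.26. For single genes the nearest course over all genes was that of ICL1 for ECI1 (0.423), ATG32, the mitophagy receptor, for FAA2 (0.214), FBP26, fructose-2,6-bisphosphatase, for PXA2 (0.216) and TSA2, a peroxiredoxin, for POT1 (0.608). The others were LSB6 for POX1 (0.318), AEP3 for FOX2 (0.184), ASR1 for PXA1 (0.253), PRP28 for CTA1 (0.514), NGL3 for CAT2 (0.445) and JID1 for CRC1 (0.328). For none of the 10 was the nearest gene another of the list. The search ran over all 5449 genes, of which only 10 are on the list, so this does not show that the 10 move apart.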

How the data were processed

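The values are log2 levels, 1 per probe set and array, which the authors deposited after RMA, a summary of probe brightness named in the submitters' processing notes. Its version, and whether it was run once over the 24 arrays, is not given in the sources used here. RMA equalises brightness between arrays, so a change of total RNA cannot be seen, and it understates differences of dim probe sets. The array holds 10928 probe sets, of which the platform annotation gives 5498 to 1 yeast gene, 1 to several genes and 1746 to another species, while 3683 are not listed there. Probe sets of the 47 genes with more than 1 were averaged, which left 5449 genes. No further normalization was applied, and the number of arrays limits the precision. The files pair the 10 genes with probe sets and names, and no sequence was used.

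Models were fitted with limma 3.58.1 (lmFit, eBayes) in R 4.3.3 to all 24 arrays, with a block for each time and separate terms for the 37 °C and 10 °C cultures at 0 min, in the first hour (3 arrays), from 2 to 8 h (3 arrays) and at 24 h, leaving 8 residual and 3.41 prior degrees of freedom. Comparisons named from 0 min subtract the difference at 0 min. The 24 h fit had culture and time as terms (14 residual degrees of freedom) and the 28 °C fit 8 arrays (6). Adjustment was by Benjamini-Hochberg over 5449 genes with a threshold of 0.05, and the fits were tested on simulated data. No time was repeated, so p-values do not cover the spread between cultures.

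The 10 genes, the 4 related lists and the rule for named genes were chosen with earlier results of these data known, so that a list's direction is not independent evidence. The rule names all 10 genes, 10 regulators and accessory enzymes, up to 3 genes per list and comparison with the smallest p among those past the threshold, and the genes nearest in root mean square difference of change. The gene lists hold 25, 20, 15 and 12 measured genes; DCI1, TES1, SPS19, IDP3, ADR1, OAF1 and PIP2 are named in any case, and PEX11 and the levels beside a test were chosen after their values were seen. Alternatives changed the 0 min baseline, the 28 °C control, the normalization, array weights, the filter on dim genes, the series, the windows and the probe sets, and left out each time in turn.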

Additional observations from a re-analysis of the deposited data

Results flagged for a closer look

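On 4 of the 30 courses, 1 array of the 8 lay far from the others, and in each case it was the 24 h array of the unshifted 28 °C culture. The rule is set to mark about 1 in 20 sets of 8 independent values by chance. Ordered times are not such a set, so that rate does not apply here. The 4 flags come from the same array. FAA2 stood at 9.33 there, 1.91 above the next highest array, CRC1 at 12.72 (4.47 above), CAT2 at 12.13 (2.43 above) and PXA1 at 10.84 (1.42 above). On that array 20.3% of all genes were at least 2-fold above and 20.5% at least 2-fold below 0 min.

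In 5 cases the change of a gene from its own 0 min differed between cultures in the limma fit of that difference. The shares of all genes that passed in these comparisons are given above. The change of CRC1 to 24 h was lower at 37 °C than at 28 °C by -4.07 (limma adjusted p = 0.0048). Each side of this difference is a single array at 0 min and at 24 h, the p rests on the spread at the times between them, and the 28 °C array at 24 h is the one named above. In the first hour the change of PXA2 was higher at 37 °C than at 10 °C by 1.3 (adjusted p = 0.035), and this did not pass without the 15 min, the 30 min or the 1 h arrays (adjusted p = 0.055, 0.11 and 0.088). From 2 to 8 h the changes of CRC1 (-2.49), ECI1 (-2.28) and FAA2 (-1.37) were lower at 37 °C than at 10 °C (limma adjusted p = 0.03, 0.024 and 0.026). None of the 3 passed without the 30 min or the 4 h arrays, and CRC1 did not without the 8 h arrays (adjusted p = 0.056). The FAA2 level itself was higher at 37 °C, by 0.55 without the 0 min baseline. Amplification kit and the 37 °C culture cannot be told apart in these differences.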

How the results depend on the processing

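Of 55 differences of single genes, 739 values were recomputed under alternatives: 607 kept direction and side of the threshold, 41 kept the direction and no longer passed, 83 newly passed and 8 turned sign. Without the 0 min baseline the sign turned for FAA2 at 24 h at 37 °C (1.09), and for POX1 (1.02) and FAA2 (0.55) at 37 °C against 10 °C from 2 to 8 h. Without the time-matched 28 °C arrays it turned at 24 h for FAA2 (1.13), CRC1 (0.63) and CAT2 (1.12) at 37 °C and for CRC1 (3.33) and PXA1 (0.8) at 10 °C, since the 28 °C culture itself was high at 24 h.

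Of 164 counts of the 10 genes past the threshold under alternatives, 46 moved by more than 1.5 times. Without the 0 min baseline the counts at 37 °C were 8 in the first hour, 6 from 2 to 8 h and 4 at 24 h, those at 10 °C were 3, 8 and 2, and those of 37 °C against 10 °C were 7 and 7. In the first hour at 37 °C 3994 of all genes then passed in place of 1. The other counts of this paragraph are given without the number of all genes that passed. They show how far the calls depend on the setting, and do not set the 10 genes against the rest. Without the time-matched 28 °C arrays the counts at 37 °C were 1 in the first hour and 4 at 24 h, those at 10 °C 7 from 2 to 8 h and 7 at 24 h, and 3 for 2 to 8 h against the first hour at 37 °C. With quantile normalization applied again 2 passed from 2 to 8 h at 10 °C. With array weights, whose iteration stopped short of its tolerance, the counts were 7 at 24 h at 37 °C, 3, 8 and 5 in the first hour, from 2 to 8 h and at 24 h at 10 °C, 4 and 9 for 37 °C against 10 °C, 3 at 24 h over the cultures and 3 within the 28 °C culture. With the compared series alone the counts were 2 at 24 h at 10 °C and 0 and 0 for 37 °C against 10 °C. With 24 h joined to the later window they were 0 and 0 for 37 °C against 10 °C and 3 for 2 to 8 h against the first hour at 10 °C. At 24 h over the cultures 3 passed with the 0 min and 24 h arrays alone and 0 without the 28 °C culture. Leaving out each time in turn gave 3 to 7 for 2 to 8 h against the first hour at 10 °C, 0 to 4 from 2 to 8 h and 0 to 1 at 24 h at 10 °C, 1 to 2 at 24 h at 37 °C, and 0 to 3 and 0 to 5 for 37 °C against 10 °C in the first hour and from 2 to 8 h. The cause of these shifts was not tested. Each time has 1 array per culture, levels under 6.53 are bounds, and the 37 °C culture shares its kit with no other culture.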
